A study of Mus musculus with 6 samples.

Results

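The c-Jun N-terminal kinases (JNKs) and the kinases that switch them on were followed through 6 RNA sequencing libraries of mouse hepatocytes, the parenchymal cells of the liver. The 10 genes were fixed by name, not by their values, out of 48,353 genes in the deposited files: 3 JNK genes (Mapk8, Mapk9 and Mapk10), 2 kinases directly above them (Map2k4 and Map2k7), 4 kinases of the tier above those (Map3k5, Map3k1, Map3k7 and Map3k11) and the scaffold Mapk8ip1. Polyadenylated RNA came from 3 samples with a Bim knock-out and 3 wild-type samples, all of the C57BL/6 strain. In the knock-out mice the floxed Bim gene (symbol Bcl2l11) was removed by Alb-Cre, a recombinase driven by the albumin promoter and so active in hepatocytes. The series title places the pro-apoptotic protein BIM downstream of JNK in fatty liver, oxidative stress and insulin resistance of obesity. The protocol speaks of male mice on a chow diet, or on a high-fat diet begun at 8 to 10 weeks of age and kept up for 14 to 20 weeks, without giving the diet or age of each sample. The hepatocytes were released by collagenase perfusion. The labels do not say that replicates came from separate animals, so p-values reflect only how much these samples vary, and part of that variation may be technical.

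JNK signalling is a relay of 3 kinases. A MAP3K, such as ASK1 (Map3k5), MEKK1 (Map3k1), TAK1 (Map3k7) or MLK3 (Map3k11), responds to oxidants, cytokines or fatty acids and phosphorylates MKK4 (Map2k4) and MKK7 (Map2k7), which together phosphorylate JNK on a threonine and a tyrosine. JNK then phosphorylates transcription factors such as c-Jun and proteins of the BCL-2 family, BIM among them. In the liver JNK1 (Mapk8) and JNK2 (Mapk9) are known for parts in insulin resistance, fat storage and hepatocyte death, while JNK3 (Mapk10) is known mainly from brain, heart and testis. The relay is controlled mostly by phosphorylation of the proteins, which RNA levels do not measure.

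The Mapk9 messages named below differ at 2 places, shown here because the reads of each library were assigned to different ones of them. The first is a pair of exons of 72 bases in the kinase domain that exclude each other, called exon a and exon b here, which are known to affect how JNK2 binds its substrates. They lie in Mapk9 on the plus strand of GRCm38, exon a at chr11:49873836-49873907 and exon b at chr11:49874264-49874335, and are given 5′ to 3′ from the GENCODE M21 transcripts, with the 25 bases that differ between them in capitals (65.3% identity).
exon a: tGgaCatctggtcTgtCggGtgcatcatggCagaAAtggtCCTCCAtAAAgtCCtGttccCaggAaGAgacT
exon b: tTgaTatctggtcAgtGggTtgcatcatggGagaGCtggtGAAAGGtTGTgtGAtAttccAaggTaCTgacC
The second place is the start of the last exon, which begins at base 49883142 of chromosome 11 in some transcripts and 5 bases further on, at 49883147, in others. The junctions are shown with 20 bases on each side and the 5 extra bases in capitals.
longer last exon: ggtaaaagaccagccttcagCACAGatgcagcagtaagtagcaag
shorter last exon: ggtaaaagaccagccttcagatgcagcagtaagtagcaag
The protein annotated for transcripts with the 5 extra bases has 381 residues (Mapk9-203 and Mapk9-204), and the one for transcripts without them has 423 (Mapk9-201 and Mapk9-202).

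The libraries held 25,335,211 to 31,130,519 estimated reads each. All 24 values above 0 of the 10 genes were even numbers (within 0.001), as were 88.7% of the values above 0 over all genes, so an estimated read may not stand for 1 sequenced read. Bcl2l11, the deleted gene, had 680 and 478 estimated reads in wild-type replicates 2 and 3. It was listed at 0 in each knock-out library and also in wild-type replicate 1, so it does not tell that library from the knock-outs. Of 10 hepatocyte markers 8 were above 0 in every library. Tat, an amino acid enzyme of hepatocytes, was listed at 0 in all 6, and the hepatocyte transcription factor Hnf4a at 0 in knock-out replicate 3. Wild-type replicate 1 stood apart: the 12 macrophage markers summed to 4210 RPKM (reads scaled to transcript length and library size) there and to 67.3 to 141 in the other 5 libraries. Over the 7 of them above 0 in every library the sum was 2990 RPKM there, of which Marco made up 2100, and 67.3 to 141 elsewhere. The hepatocyte marker sum of wild-type replicate 1, most of it Alb, was the lowest, at 19,200 RPKM against 19,600 to 41,100. Single markers went both ways: Apoa1, Apob, Ttr, Cps1 and Fgb were each lowest there. Alb was lower in wild-type replicate 3 (15,000 against 16,500 RPKM), and Serpina1a was not lowest in wild-type replicate 1 either. Cyp2e1 was highest in wild-type replicate 1, at 403 RPKM against 161 to 349 elsewhere. In such bulk samples a smaller share of a cell type and less RNA per cell cannot be told apart. The 8 endothelial markers summed to 34.1 RPKM in wild-type replicate 1, with 5 of them at 0 throughout. The neutrophil markers summed to 13.4 there, all from Csf3r, the only 1 of the 5 read in any library. Both lists were at 0 in the other 5 libraries. Of 8 stellate cell markers 7 were at 0 in every library, and none of the 5 neuron markers had a read (0).

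How often a gene was listed at exactly 0 went with whether its locus has 1 annotated transcript or several. Among genes whose median was above 100 reads where they were read, none of 12,810 values was 0 at loci with 1 transcript (0), and 18,026 of 49,272 (36.6%) were 0 at loci with 2 or more. Map3k11 is the only one of the 10 kinase and scaffold genes with a single annotated transcript at its locus, and it alone was above 0 in all 6 libraries. The other 9 lie at loci with 4 to 16 transcripts, and 36 of their 54 values were 0. For the 7 of them read in at least 1 library, 24 of 42 values (57.1%) were 0, beside 36.6% for genes at loci of like transcript number. A value of 0 is therefore given here only as listed, without a mean or fold, and "read" means above 0.

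Over the 10 genes, 10 of 30 values were above 0 in knock-out and 14 of 30 in wild-type. Knock-out replicate 2 read 2 of the genes and wild-type replicate 3 read 6, while each of the other 4 libraries read 4. These counts include the genes never read and Map3k11. For the 7 genes read in at least 1 library at loci with several transcripts, zeros made up 57.1%, 85.7% and 57.1% in knock-out replicates 1 to 3. In wild-type replicates 1 to 3 it was 57.1%, 57.1% and 28.6%. For comparison, zeros were counted over genes with a median above 100 reads at loci of like transcript number. They made up 35.7% to 40.3% of the values in each knock-out library and 34.4% to 35.9% in each wild-type library. None of the 10 genes was read in all 3 libraries of one genotype and at 0 in all 3 of the other (0). Over the 11,021 genes tested below, at least 0.789% were split in this way.

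**Figure D1:**
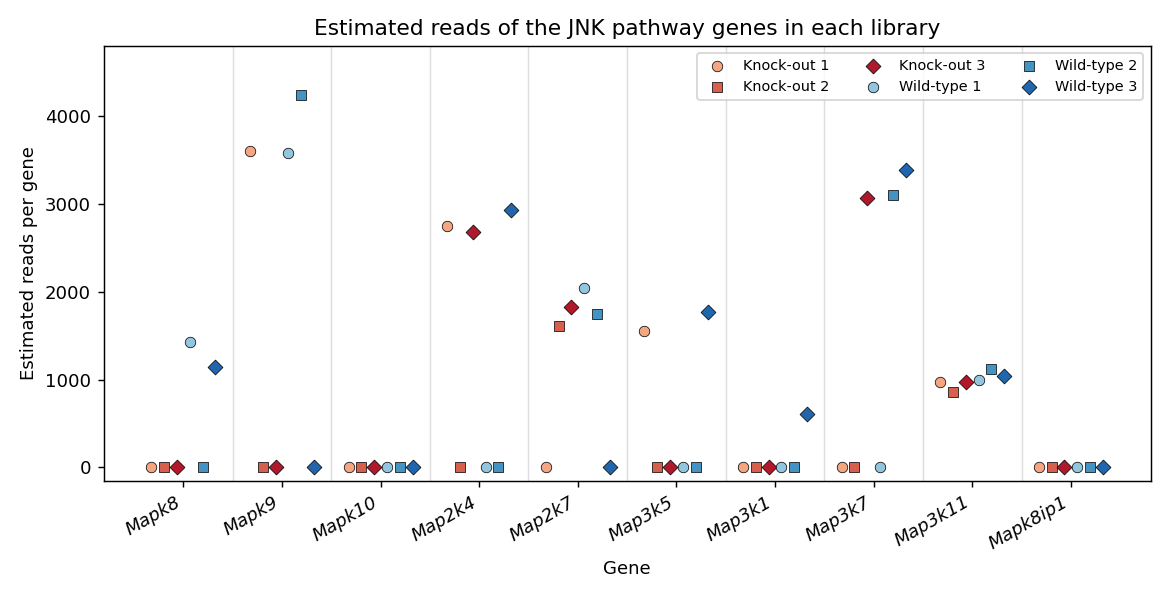
Estimated reads (vertical axis) of the 10 JNK pathway genes in each of the 3 knock-out and 3 wild-type libraries, 1 point per library. Map3k11 is above 0 in all 6, Mapk10 and Mapk8ip1 are at 0 in all 6, and the other 7 genes are either at 0 or in a narrow band of reads.

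Mapk8, the gene of JNK1, was read in wild-type only, with 1426 estimated reads in replicate 1 and 1146 in replicate 3. Wild-type replicate 2 and the 3 knock-out libraries were listed at 0, so the groups shared the value 0. In RPKM the 2 values were 11.8 and 9.70. The gene (ENSMUSG00000021936) lies on the minus strand at chr14:33377898-33447158, with 9 annotated transcripts, and all of its reads went to Mapk8-205, a message of 5756 bases whose annotated protein has 384 residues. The limma test over all genes gave Mapk8 an unadjusted p of 0.0827 and an adjusted p of 0.941. That outcome depended on wild-type replicate 2. Without it the limma adjusted p of Mapk8 was 0.0130, in a setting where 193 genes passed against 87 with all libraries. Leaving out that library removes the only wild-type 0, so every wild-type value left lies above knock-outs listed at 0. All 87 genes called with all libraries had such a split. The choice of library thus fixed the call, and no conclusion about Mapk8 is drawn from it. Without wild-type replicate 1 the adjusted p of Mapk8 was 0.989 (limma). Mapk8 was read in the library rich in macrophage markers and also in wild-type replicate 3, where those markers summed to 129 RPKM. The part of other cell types in the Mapk8 reads was not tested. Of the 1144 genes with a median above 100 reads that were read in 2 libraries at loci with several transcripts, 101 had the same pattern as Mapk8.

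Mapk9, the gene of JNK2, had 3600 estimated reads in knock-out replicate 1, 3584 in wild-type replicate 1 and 4236 in wild-type replicate 2, and was listed at 0 in the other 3 libraries. It lies on the plus strand at chr11:49846751-49886421 (ENSMUSG00000020366), with 10 annotated transcripts. Scaled to library totals (RPM, without regard to length) the 3 values were 127, 127 and 136, so that the highest exceeded the lowest 1.07-fold. In RPKM they were 137, 61.0 and 43.5, a 3.15-fold range. The reads were thus alike where the length-scaled values were not, since RPKM divides by the length of the transcript to which reads were assigned.

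In knock-out replicate 1 all 3600 reads of Mapk9 went to Mapk9-202, a message of 1297 bases with exon a and the shorter last exon. In wild-type replicate 2 all 4236 went to Mapk9-203, with exon a and the longer last exon in 4447 bases. Wild-type replicate 1 was the only library with reads on several Mapk9 messages: 2608 went to Mapk9-201, 490 to Mapk9-204, 386 to Mapk9-202 and 99.8 to Mapk9-206, which is annotated without a protein. By exon, 86.4% of the Mapk9 reads there were on messages with exon b and 10.8% on messages with exon a. Each assignment is from a single library and has no replicate.

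**Figure D2:**
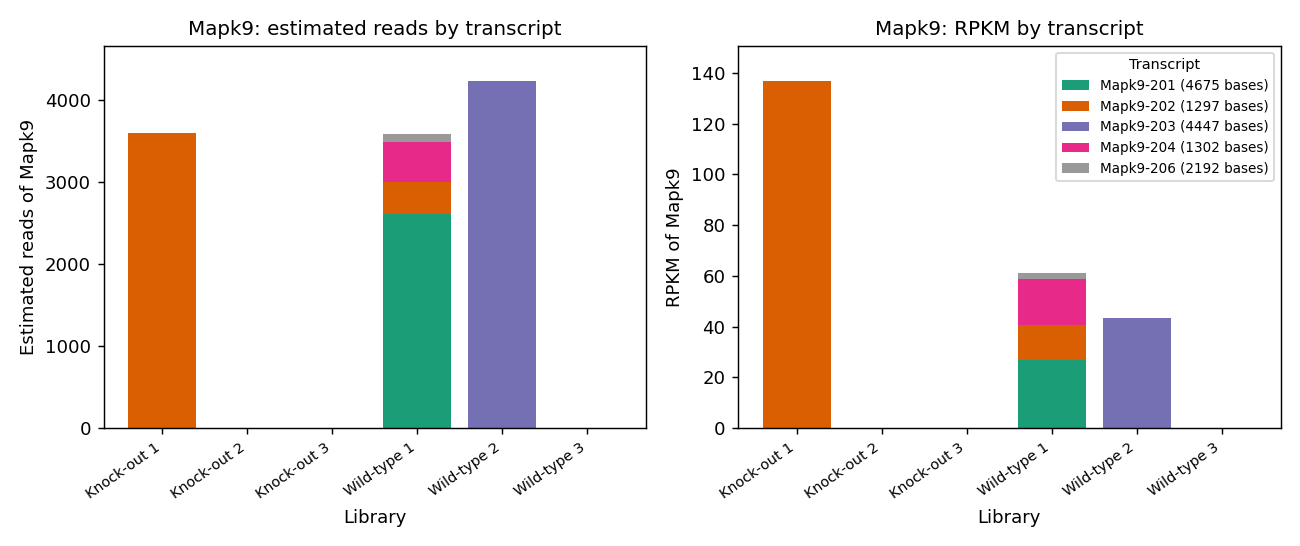
Mapk9 by library, with estimated reads in the left panel and RPKM in the right, stacked by the annotated transcript to which reads were assigned. Reads are alike in the 3 libraries above 0 (3584 to 4236), while RPKM runs from 43.5 to 137 with the transcript named in the key.

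Both JNK genes were read together in wild-type replicate 1 only, where Mapk9 had 2.51 times the reads of Mapk8 and 5.16 times its RPKM. Mapk10, the gene of JNK3, was listed at 0 in all 6 libraries. Its locus on chromosome 5 holds 14 transcripts, 12 of them its own. Genes at such loci can be listed at 0 in one library and hold 4236 reads in the next, as Mapk9 was, so the zeros of Mapk10 set no upper limit on its RNA.

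Map2k4, which encodes MKK4, was read in knock-out replicates 1 and 3 with 2744 and 2686 reads and in wild-type replicate 3 with 2926. Those values were 36.7, 37.8 and 38.6 RPKM, and the other 3 libraries were listed at 0. Map2k4 lies on the minus strand at chr11:65688243-65788297. Where it was read the libraries of both genotypes lay close together: in RPM the highest exceeded the lowest 1.09-fold, beside a median of 1.30 for the 1036 genes read in 3 libraries with a median above 100 reads.

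Map2k7, which encodes MKK7, was read in 4 libraries, 1614 and 1830 reads in knock-out replicates 2 and 3 and 2046 and 1752 in wild-type replicates 1 and 2. The knock-out values of 23.1 and 27.0 RPKM lay inside the wild-type range of 22.7 to 27.7. Knock-out replicate 1 and wild-type replicate 3 were listed at 0. All Map2k7 reads went to Map2k7-202, 1 of 10 transcripts of the gene on chromosome 8. Knock-out replicate 3 was the only library that read both MKK genes, with 37.8 RPKM for Map2k4 and 27.0 for Map2k7.

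Map3k11 encodes MLK3, a kinase activated by saturated fatty acids and by the GTPases RAC1 and CDC42. Its estimated reads were 974, 858 and 978 for the knock-outs against 994, 1118 and 1036 for the wild-types. In RPKM these were 12.7, 11.4 and 13.4 against 12.5, 13.4 and 13.3. The groups overlapped, and wild-type replicate 1, rich in macrophage markers, lay inside the range of the rest. The means were 12.5 ± 1.0 RPKM for knock-out against 13.1 ± 0.509 for wild-type (SD, n = 3 each; exact two-sided permutation p = 0.6, where the smallest possible is 0.1). On the log2(RPKM + 1) scale the difference for Map3k11 was -0.06 (SE 0.14, 95% interval -0.42 to 0.30, limma adjusted p = 1.0). The gene lies on the plus strand at chr19:5689131-5702862 (ENSMUSG00000004054).

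Map3k7 encodes TAK1, which relays signals of tumour necrosis factor, interleukin-1 and TGF-beta. It was read in knock-out replicate 3 with 3068 reads and in wild-type replicates 2 and 3 with 3104 and 3392 reads, or 28.1, 25.0 and 29.1 RPKM. The other 3 libraries were listed at 0, and the knock-out value of Map3k7 lay between the wild-type ones. All reads went to Map3k7-202, 1 of 9 transcripts at chr4:31964097-32023467.

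Map3k5 encodes ASK1, which reduced thioredoxin holds inactive and oxidants release. It had 1550 reads in knock-out replicate 1 and 1774 in wild-type replicate 3 (14.1 and 15.9 RPKM) and was listed at 0 elsewhere. Map3k1, the gene of MEKK1, a kinase that also carries a ubiquitin ligase domain, had 606 reads (4.23 RPKM) in wild-type replicate 3 and was listed at 0 in the other 5 libraries. Wild-type replicate 3 was thus the 1 library in which all 4 MAP3K genes were read.

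Mapk8ip1 encodes JIP1, a scaffold that holds MLK kinases, MKK7 and JNK together and that is known chiefly from neurons and pancreatic islet cells. It was listed at 0 in every library, as were its 3 annotated transcripts at chr2:92383676-92401263. No annotated gene overlapping one of the 10 on either strand had a read in any library, so no read was assigned to such a neighbour.

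Where they were read, the genes were ordered by their level per length. By the median over libraries above 0, Mapk9 stood at 61.0 RPKM, Map2k4 at 37.8, Map3k7 at 28.1, Map2k7 at 25.0, Map3k5 at 15.0, Map3k11 at 13.0, Mapk8 at 10.8 and Map3k1 at 4.23. Since the order was taken from these values, it is a description. It does not hold for RPM, where Map3k7 at 121 stood above Map2k4 at 106 and 104 in knock-out and wild-type replicates 3, and Mapk8 at 50.5 above Map3k11 at 35.2 in wild-type replicate 1. The ranges of Map3k7 and Map2k7 overlapped, as did those of Map3k11 and Mapk8, and the other neighbours did not overlap. The place of Mapk9 at the top rests on values that moved with the transcript used. Among all genes above 0 in at least 1 library, Mapk9 lay at percentile 83.3, Map2k4 at 75.4 and Map3k1 at 38.5 of the same median.

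**Figure D3:**
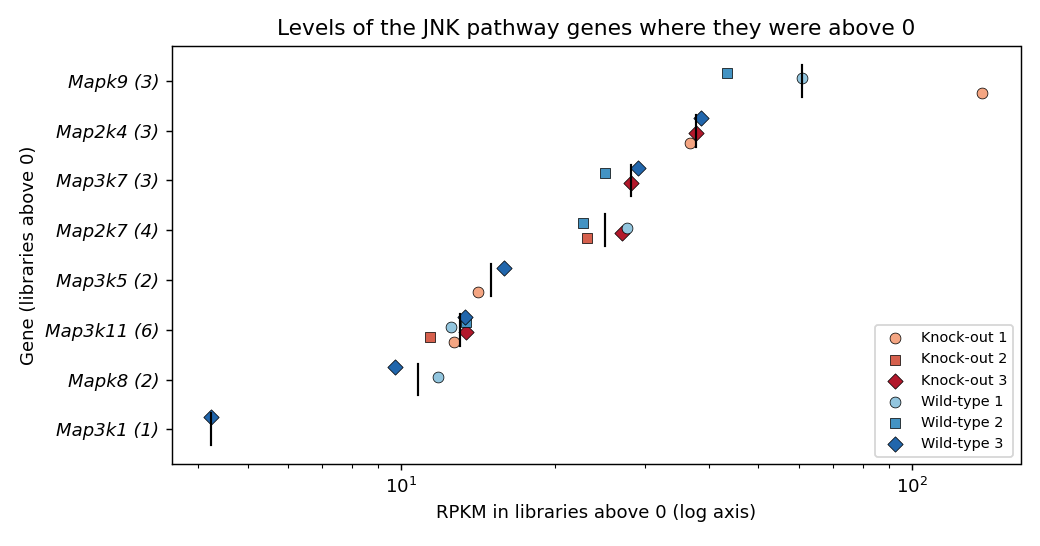
RPKM (horizontal log axis) of the 8 genes with reads, ordered by the median (bar) over the libraries above 0, whose number stands in parentheses. Knock-out and wild-type points of Map2k4, Map2k7, Map3k7 and Map3k11 lie within the same narrow range, and Mapk9 spreads from 43.5 to 137.

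Knock-out and wild-type were compared with limma on log2(RPKM + 1), over every gene whose mean reached 1 RPKM. Of the 10 genes 7 passed that filter, and none was called (0, and 0 at an unadjusted p below 0.05), with adjusted p between 0.941 and 1.0. Over all 11,021 genes tested, 0.789% were called (0.372% higher and 0.417% lower in knock-out). Each of those 87 genes had 3 libraries of the same genotype at 0 and the 3 of the other genotype above it. With zeros at loci of 2 or more transcripts taken as missing, a setting chosen after the data were seen that drops 2 or 3 libraries from each gene named next, differences could be set between the libraries that remained. In RPM, knock-out minus wild-type was -0.04 for Map2k4 (95% interval -0.61 to 0.54) and 0.02 for Map2k7 (-0.54 to 0.59) on the log2 scale. It was 0.14 for Map3k7 (-0.51 to 0.80) and -0.04 for Mapk9 (-0.59 to 0.51). A group with 1 library left was taken to vary like the rest, and the limma adjusted p of each was 1.0. The intervals include differences as large as 0.80 on the log2 scale, so they do not show that the genotypes were alike. For Mapk9 the outcome turned with the quantity: in RPKM its difference in this setting was 1.40. That value rests on 1 knock-out and 2 wild-type libraries, whose Mapk9 reads were assigned to transcripts of different lengths.

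The rest of the pathway was described from a list of 117 genes in 10 roles, from receptors to substrates. Of these, 49 were read in all 6 libraries, 53 in 1 to 5 and 15 in none. None of the 91 genes tested was called in either direction (0 higher, 0 lower in knock-out), beside 0.789% of all genes, and 1 (1.1%) had an unadjusted p below 0.05, beside 1.89% of all genes. Among the 44 tested genes read in all 6 libraries, 23 had a positive and 21 a negative difference, with a median of 0.03 on the log2 scale, beside 0.00 (0.00129) over all 5538 such genes. The groups did not overlap for 4 of the 44 (9.09%), beside 5.94% of the 5538. In RPM it was 2 of the 44 (4.55%), beside 3.81%.

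**Figure D4:**
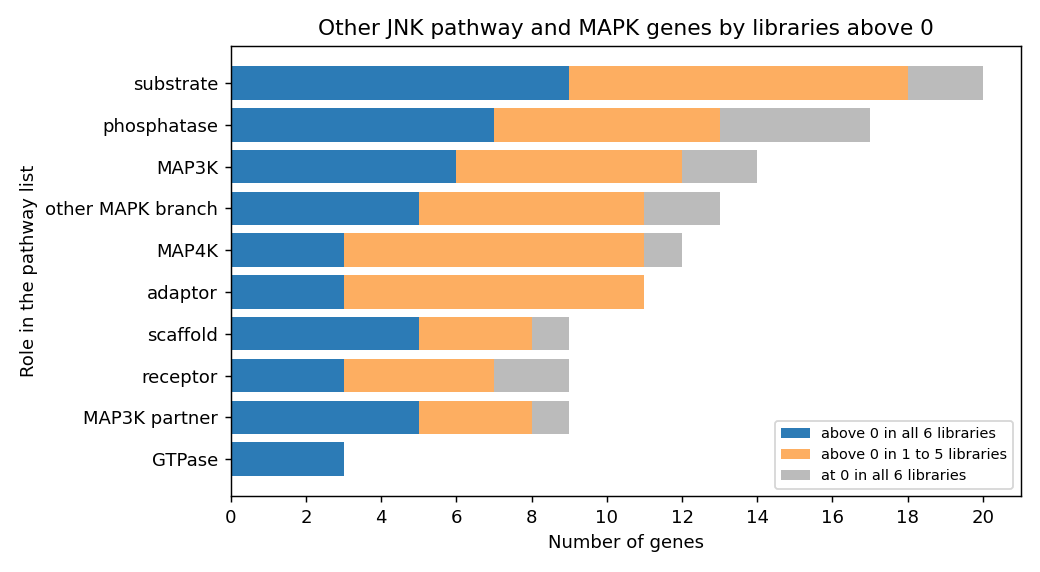
Number of genes of the pathway list (horizontal axis) by role, split by whether a gene was above 0 in all 6 libraries, in 1 to 5 or in none. All 3 GTPase genes and 3 of 11 adaptor genes were above 0 in all 6.

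At the top of the pathway, 3 of 9 receptor genes were read in all libraries. Tgfbr1, a TGF-beta receptor chain, measured 182, 118 and 240 RPKM in the knock-outs against 89.6, 73.4 and 190 in the wild-types, with overlapping groups (limma adjusted p = 0.941). The order of the Tgfbr1 means turned with the quantity: knock-out over wild-type was 1.53 in RPKM and 0.931 in RPM (254 ± 78.7 and 273 ± 74.2, SD, n = 3 each). Egfr, the epidermal growth factor receptor, measured 86.7, 50.1 and 71.4 RPKM in the knock-outs against 44.3, 78.0 and 76.4 in the wild-types. The receptors Fas and Tlr4, a death receptor and the endotoxin receptor, both named after their values were seen, were listed at 0 in all 6 libraries. The adaptor Crk measured 374, 407 and 250 RPKM in the knock-outs against 725, 221 and 262 in the wild-types. Its reads did not spread in this way, at 9006 to 10,818 over the 6 libraries, with 10,186 in wild-type replicate 1. Daxx, which couples death receptors to ASK1, measured 94.4, 23.6 and 34.7 RPKM against 34.2, 97.4 and 39.3. The small GTPases Rhoa, at 510 to 815 RPKM in the knock-outs against 349 to 852 in the wild-types, and Cdc42, at 364 to 514 and 368 to 414, were read everywhere.

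Among kinases above the MAP3K tier, Map4k4 measured 45.1 to 50.8 RPKM in the knock-outs against 48.8 to 57.6 in the wild-types, and Mink1 30.4 to 42.0 and 34.7 to 37.1. Other MAP3K genes were read in all libraries for 6 of 14. Map3k6, the ASK1 relative ASK2, had 17.4, 19.5 and 17.7 RPKM in the knock-outs against 14.3, 20.0 and 17.6 in the wild-types. Map3k3 had 14.2, 15.2 and 12.7 in the knock-outs against 25.7, 14.3 and 12.8 in the wild-types, the high value being that of replicate 1. Txn1, the thioredoxin that binds ASK1, was among the highest of the list, at 585, 516 and 634 RPKM in the knock-outs against 614, 524 and 630 in the wild-types. The 14-3-3 gene Ywhaz measured 235, 210 and 229 in the knock-outs against 498, 239 and 238 in the wild-types, groups that did not overlap in RPKM (limma adjusted p = 0.941). Its reads ran from 13,667 to 17,192 in all libraries, and those of wild-type replicate 1 (15,593) lay in the middle.

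Of the scaffolds, Flna, an actin cross-linker, measured 168, 196 and 387 RPKM in the knock-outs against 177, 172 and 149 in the wild-types. The reads of Flna did not spread in this way, at 25,451 to 32,370 over the 6 libraries, with 27,954 in knock-out replicate 3. Spag9, the JNK scaffold JIP4, measured 77.5 to 87.0 RPKM in the knock-outs against 74.5 to 101 in the wild-types. Mapk8ip2, the gene of the closest relative of JIP1, named after its values were seen, was at 0 throughout. Of the phosphatases that switch MAP kinases off, Dusp16, which prefers JNK, measured 128, 121 and 118 RPKM in the knock-outs against 81.3, 101 and 120 in the wild-types (limma adjusted p = 0.941). Ppm1b, which acts on TAK1, measured 47.8 to 62.0 and 47.7 to 53.7. In the neighbouring MAP kinase branches, Map2k1, the ERK activator MEK1, measured 86.5 to 112 and 87.5 to 126. Mapkapk2, the kinase below p38, measured 76.5 to 80.3 in the knock-outs against 146, 73.3 and 76.4 in the wild-types.

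Among the substrates, the 14-3-3 gene Ywhab measured 147 to 162 RPKM in the knock-outs against 148 to 166 in the wild-types. Junb, an AP-1 factor, measured 209, 140 and 157 in the knock-outs against 104, 151 and 141 in the wild-types, with overlapping groups (limma adjusted p = 0.941). Jund, the AP-1 factor JunD, named after its values were seen, was the 1 list gene at an unadjusted p below 0.05. It measured 41.2, 51.4 and 35.8 RPKM in the knock-outs against 29.5, 28.3 and 32.3 in the wild-types, so every knock-out library lay above every wild-type one. The means of Jund were 42.8 ± 7.96 and 30.1 ± 2.07 (SD, n = 3 each; exact two-sided permutation p = 0.1, the smallest possible). The difference of Jund was 0.48 on the log2 scale (SE 0.17, limma unadjusted p = 0.0399, adjusted p = 0.941), and it did not pass. Jun and Fos were likewise named after their values were seen. Jun measured 18.4, 19.8 and 17.1 RPKM in the knock-outs against 27.4, 15.6 and 14.8 in the wild-types, and Fos was listed at 0 in all 6.

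**Figure D5:**
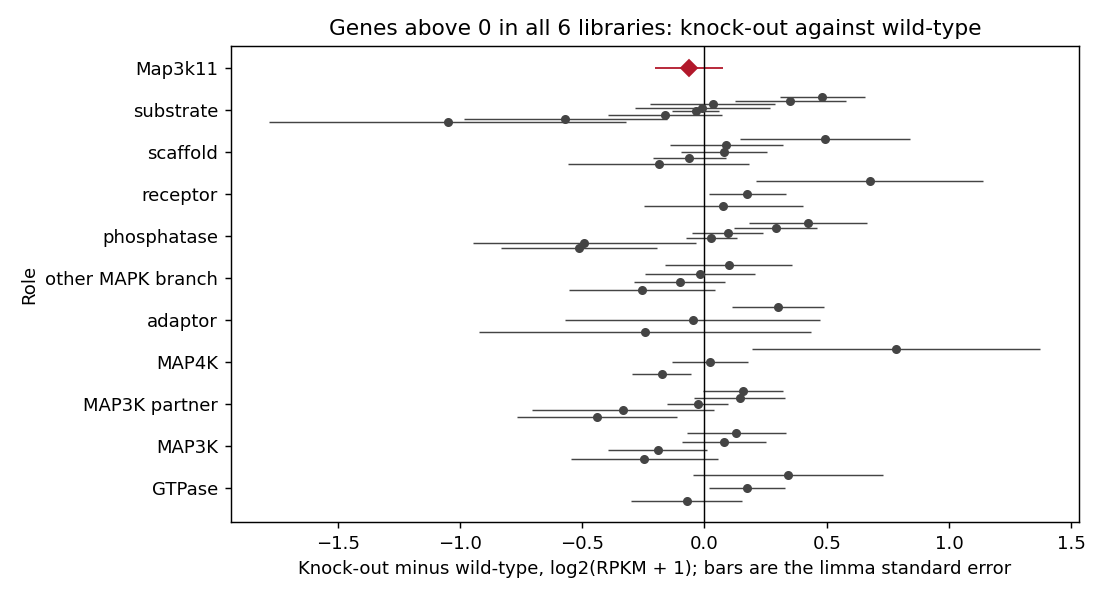
Knock-out minus wild-type on the log2(RPKM + 1) scale (horizontal axis) for Map3k11 and the 44 tested pathway genes above 0 in all 6 libraries, by role, with the limma standard error as bars. The points lie on both sides of 0 in most roles (23 positive, 21 negative among the 44), and Map3k11 is at -0.06.

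In wild-type replicate 1 some list genes stood above the other libraries and some below. Of the 44 tested list genes read in all 6 libraries, 15 (34.1%) had their highest RPM there, beside 33.1% of the 5538 genes. An RPM of at least 1.5 times the median of the other 5 libraries, a limit chosen after the data were seen, was reached by 9 of the 44 (20.5%), beside 9.84% of the 5538 genes. At the other end, 4 of the 44 (9.09%) lay at or under that median divided by 1.5, beside 9.19%. These included Egfr at 0.599 and Tgfbr1 at 0.64 of the median. Batf, an AP-1 factor of immune cells, measured 8.70 RPKM there and 0.423 to 1.12 elsewhere. Sh3bp5, the mitochondrial JNK-binding protein SAB, measured 58.8 RPKM there and 25.6 to 36.4 elsewhere. The TNF receptor gene Tnfrsf1b, not among the 44, had 31,042 reads there. It had 6190 and 3912 in knock-out replicates 1 and 2 and 5580 in wild-type replicate 2. In knock-out and wild-type replicates 3 Tnfrsf1b was listed at 0. Batf, Sh3bp5 and Tnfrsf1b were named after their values were seen. The macrophage markers stood at 4210 RPKM in the same library, and their part in these values was not tested.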

How the data were processed

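Per the labels, 6 single-end libraries of polyadenylated hepatocyte RNA were sequenced, and samples were grouped and numbered by their titles. The submitters' processing notes name TopHat2 (version 2) and the mouse build GRCm38 (mm10). The tool for dividing reads among transcripts and its strand setting are not given in the sources used here. The deposited files give, for each of 118,492 transcripts, an estimated count of reads and its RPKM, which the authors scaled to library totals below the summed estimated reads. Since most read values are even numbers, no counting error is given.

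Reads and RPKM were summed over transcripts per gene. Symbols came from a table of Ensembl identifiers (47,993 of 48,353 genes matched). Genes whose mean reached 1 RPKM were tested on log2(RPKM + 1), which understates changes of low genes, with limma 3.58.1 in R 4.3.3 (lmFit, then eBayes with trend, two-sided, all 6 libraries, no covariate). Calls are at a Benjamini-Hochberg adjusted p below 0.05. Single genes were compared by exact permutation tests (scipy 1.17.1), and the fit was tested on simulated data. Alternatives covered pseudocount, filter, scaling, quantity, transcript choice, variance model, replicate block and left-out libraries.

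The genes and lists were chosen with earlier results of these data known. Named were the 10 genes, Bcl2l11, any list gene called or read in 1 whole genotype only, and per role the 2 genes highest in mean RPKM among those read in all 6 libraries. Nearest profiles were to be sought for JNK and MAP2K genes read in all 6 libraries, and there were 0. Other list genes are marked where named.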

Additional observations from a re-analysis of the deposited data

How the results depend on the processing

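The 10 genes gave no call (0) under 17 of 18 alternatives, none of which tested all 10. Only 5 were tested at a mean of at least 5 RPKM, and 5 with zeros taken as missing. With only genes above 0 in all 6 libraries it was 1. Leaving out libraries gave 0 to 1, the 1 being Mapk8 without wild-type replicate 2 (limma adjusted p = 0.0130, and 0.861 to 0.991 over the other alternatives that tested it). That library held the only wild-type 0 of Mapk8, whose knock-out values were all 0, so leaving it out fixed the call. The pathway list gave 0 or 1 called gene: 0 to 1 when libraries were left out (Itch without knock-out replicate 2, Bcl2l11 without wild-type replicate 1, Ppp5c without wild-type replicate 2 and Stk3 without wild-type replicate 3, each listed at 0 in 1 remaining group), and 1, Txn2, when the transcript with the most reads stood for the gene. The 87 calls over all genes became 171 to 198 without any 1 library, 0 with only genes above 0 in all 6 libraries, 0 and 0 with zeros taken as missing, a setting added after the data were seen (RPKM and RPM), and 0 with the replicate number as a block. The median difference of the list ran from -0.00049 to 0.112. Map3k11 reversed in sign with quantile normalization (0.0301), and lay between -0.11 and -0.00443 without a library.

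Samples of the same replicate number did not deviate together: their deviations correlated at -0.16, -0.05 and -0.01 across 5538 genes, which are not independent replicates. Samples of different number correlated from -0.27 to 0.31, so the same-numbered values cannot decide whether samples were paired. With the replicate block the list gave 0 calls, the 10 genes 0, the list median 0.03 and Map3k11 -0.06. Each gene is limited by how many libraries read it: 3 or fewer for 6 of the 7 read in part.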

Other observations

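Some list genes were read in exactly the same libraries as one of the 10 genes. Atf2, the gene of an AP-1 partner that JNK phosphorylates, was read like Map2k4 in knock-out replicates 1 and 3 and wild-type replicate 3, with 2464, 2488 and 2724 reads. Mapk14, the gene of p38 alpha, was read like Map3k7, with 4408 reads in knock-out replicate 3 and 5056 and 4656 in wild-type replicates 2 and 3. Ppp5c, a phosphatase that acts on ASK1, was read like Mapk8, with 1994 and 1810 reads in wild-type replicates 1 and 3. Over all genes read in as many libraries at loci with several transcripts, 36 of 1036 had the pattern of Map2k4 and 52 of 1036 that of Map3k7. These genes were named after their values were seen.

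Other kinases of the list were read in a single library. Mapk3, the gene of ERK1, was read in wild-type replicate 2 alone, with 3308 reads. Map3k20, the gene of the stress kinase ZAK, had 2712 reads in wild-type replicate 3 only, the pattern of Map3k1. Of 1432 genes with a median above 100 reads that were read in 1 library at loci with several transcripts, 274 had that pattern. Mapk3 and Map3k20 were named after their values were seen.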
